A study of Homo sapiens with 6 samples.

Results

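The PAX family comprises 9 genes, PAX1 to PAX9, out of 19819 protein-coding genes of chromosomes 1 to 22 and X that were examined, and all 9 were followed here by name across whole-genome bisulfite sequencing of H9 human embryonic stem cells. H9 is an established line derived from a human embryo. Bisulfite turns unmethylated cytosine into uracil, so each read that crosses a CpG gives a methylated or an unmethylated call, and a level is the percentage of calls over a feature that were methylated. The 3 Conventional libraries came from H9 cells grown with 20% KSR and 10 ng/ml bFGF. The 3 Reset libraries came from H9 cells in which doxycycline-induced NANOG and KLF2 transgenes were expressed for about a fortnight, after which doxycycline was withdrawn and the cells were carried in N2B27 with 1 μM PD0325901, 1 μM CHIR99021, human LIF and 5 μM Gö6983, the medium called t2iL+Gö. Both were kept on mouse embryonic fibroblast feeders at 5% oxygen. Every library is from the same line. The study calls the replicates biological, and the sources used here do not say whether they were separate cultures or descend from a single clone. Medium, transgene history and the way cells were dissociated at passage differ together between the groups, so the parts of the treatment cannot be told apart. The p-values set the group difference against a spread between libraries that was moderated over all features, and they concern these libraries only.

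PAX proteins are transcription factors that bind DNA through a paired domain and act in organ formation. PAX1 and PAX9 form a subfamily that acts in the sclerotome, the thymus and the teeth. PAX2, PAX5 and PAX8 act in the kidney and the midbrain, in B cells and in the thyroid. PAX3 and PAX7 act in neural crest and muscle precursors, and PAX4 and PAX6 in pancreatic islets and, for PAX6, in the eye. Genes of this kind are silent or nearly so in pluripotent cells and often lie in broad CpG-rich stretches that lack DNA methylation.

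Sequencing depth was low per CpG, and over the 9 PAX regions the depth of Reset relative to Conventional libraries, scaled to the genome, lay between 0.93 and 1.09. The Conventional libraries held 92023996 to 98004161 calls and the Reset libraries 70329213 to 80199615, or 2.51 to 3.49 calls per CpG. Of all calls, 84.3% to 84.6% were methylated in Conventional and 29.5% to 30.3% in Reset libraries. Levels are therefore given over promoters, gene bodies and tiles of 500 bp that had at least 10 calls in every library. They describe bulk DNA, in which partial methylation of every cell and full methylation of some cells cannot be told apart.

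The stretches below are shown as the sequence at starts and tiles that gained methylation and at others that did not, and the capitals mark each CpG. Whether CpG number bears on the gain was not tested. They were read from the GRCh37 genome, 300 bases each, 5′ to 3′ on the strand of the gene. The 300 bases just upstream of the canonical start of PAX3 (chr2:223163718-223164017, minus strand, 18 CpGs) gained methylation, and those of PAX5 (chr9:37034266-37034565, minus strand, 32 CpGs) did not. The stretch upstream of another coding start of PAX5 (chr9:37002750-37003049, minus strand, 27 CpGs) lies mostly in the tile of that gene that gained most. The stretch inside PAX9 (chr14:37135549-37135848, plus strand, 24 CpGs) and the stretch upstream of PAX6 (chr11:31840516-31840815, minus strand, 22 CpGs) lie in the tiles where those genes gained most. Each is the most CpG-rich stretch of its tile among those that overlap no annotated untranslated region. The bases upstream of PAX4 (chr7:127258197-127258496, minus strand) hold 1 CpG.
PAX3 upstream: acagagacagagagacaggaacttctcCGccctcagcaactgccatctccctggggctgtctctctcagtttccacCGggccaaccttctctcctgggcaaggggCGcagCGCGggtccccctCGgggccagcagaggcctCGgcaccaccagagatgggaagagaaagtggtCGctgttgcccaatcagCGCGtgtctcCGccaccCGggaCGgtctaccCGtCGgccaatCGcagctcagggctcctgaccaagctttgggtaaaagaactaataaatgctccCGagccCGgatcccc
PAX5 canonical upstream: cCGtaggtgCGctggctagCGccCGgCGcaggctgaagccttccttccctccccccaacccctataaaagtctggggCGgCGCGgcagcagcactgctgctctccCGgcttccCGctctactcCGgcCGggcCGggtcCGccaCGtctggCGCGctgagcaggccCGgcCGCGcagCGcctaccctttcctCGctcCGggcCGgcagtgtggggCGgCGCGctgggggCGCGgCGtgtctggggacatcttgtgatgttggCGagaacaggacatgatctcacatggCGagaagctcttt
PAX5 other start upstream: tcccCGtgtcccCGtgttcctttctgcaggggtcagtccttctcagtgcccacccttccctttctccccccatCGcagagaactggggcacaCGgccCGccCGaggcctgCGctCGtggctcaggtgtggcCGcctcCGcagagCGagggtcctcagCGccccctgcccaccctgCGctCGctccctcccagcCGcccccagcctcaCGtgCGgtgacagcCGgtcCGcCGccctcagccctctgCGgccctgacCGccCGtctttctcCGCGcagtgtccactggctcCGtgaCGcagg
PAX9 internal: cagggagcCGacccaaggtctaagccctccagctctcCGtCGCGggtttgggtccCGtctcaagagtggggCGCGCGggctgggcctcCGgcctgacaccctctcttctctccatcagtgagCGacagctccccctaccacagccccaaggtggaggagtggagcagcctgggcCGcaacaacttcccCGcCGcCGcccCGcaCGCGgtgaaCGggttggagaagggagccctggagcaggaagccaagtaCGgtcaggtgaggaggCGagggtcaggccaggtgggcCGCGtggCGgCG
PAX6 far upstream: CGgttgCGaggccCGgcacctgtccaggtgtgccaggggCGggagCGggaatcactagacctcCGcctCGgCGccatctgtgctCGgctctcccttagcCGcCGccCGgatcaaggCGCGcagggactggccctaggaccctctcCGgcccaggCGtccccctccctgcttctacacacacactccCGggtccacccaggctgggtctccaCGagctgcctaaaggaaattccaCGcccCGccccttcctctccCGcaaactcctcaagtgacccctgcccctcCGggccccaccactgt
PAX4 upstream: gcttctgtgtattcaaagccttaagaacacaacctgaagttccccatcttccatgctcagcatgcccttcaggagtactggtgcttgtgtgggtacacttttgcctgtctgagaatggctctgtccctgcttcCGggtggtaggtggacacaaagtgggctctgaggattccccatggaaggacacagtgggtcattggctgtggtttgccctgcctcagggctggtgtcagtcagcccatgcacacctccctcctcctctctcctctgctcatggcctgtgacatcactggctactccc

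In the stretch upstream of PAX3 no call was methylated in the 3 Conventional libraries, over 19, 52 and 34 calls. The Reset libraries stood at 33.3%, 31.8% and 61.2% over 18, 22 and 49 calls. In the canonical PAX5 stretch the Conventional levels were 0%, 2.13% and 0% and the Reset levels 1.04%, 0% and 1.55%, so the groups overlapped at a level close to 0. The stretch inside PAX9 held no methylated call in any Conventional library and 51.9%, 53.1% and 56.7% in the Reset libraries. The PAX6 stretch had 0%, 6.25% and 0% in Conventional and 52.4%, 52.3% and 41.4% in Reset libraries. The stretch at the other PAX5 start had 8, 4 and 69 calls in the Reset libraries, and the PAX4 stretch had 1 to 3 calls in each library, too few for a level.

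The first question was whether the promoters of the family, defined to begin 1000 bp before the canonical start and to end 500 bp after it, lost methylation with the rest of the genome. Instead, 5 of the 9 (PAX1, PAX3, PAX7, PAX8 and PAX9) were higher in Reset cells, 1 (PAX4) was lower, and 3 (PAX2, PAX5 and PAX6) were not called, at an adjusted p under 0.05 in a quasi-binomial model fitted over 19300 promoters. Of all these promoters, 67.4% were called lower and 3.98% higher. Of the 9 PAX promoters, 7 were under 20% in Conventional cells, and 4 of those 7 were higher in Reset cells. Among all 11061 promoters under 20%, 6.55% were higher.

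PAX3, which specifies dorsal neural tube, neural crest and muscle precursors, had the largest promoter rise of the family. Its levels were 0.99%, 0.995% and 1.75% in Conventional and 39.0%, 56.5% and 54.0% in Reset libraries. All Reset libraries stood far above all Conventional libraries, with a difference of 48.6 points (SE 5.46, adjusted p = 8.34e-08). The promoter of PAX1, a sclerotome factor, rose from 2.27%, 4.08% and 5.52% to 45.7%, 27.5% and 34.6%, a difference of 32.0 points (SE 5.36, adjusted p = 5.45e-06). Again the groups did not overlap, although the Reset libraries themselves were spread over a wide range.

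The promoter of PAX8, the thyroid and kidney factor, was already partly methylated, with 22.2%, 31.2% and 24.3% in Conventional libraries. The 500-bp tile at the PAX8 start, by contrast, stood at 2.56% ± 1.03 in Conventional cells. Over the whole promoter the Reset levels were 52.2%, 54.1% and 46.8%, which is 25.1 points higher (SE 3.48, adjusted p = 0.000210). The groups were clearly apart, and with the promoter drawn from 500 bp before the start the difference was 46.0 points. At the promoter of PAX9, which acts in tooth and pharyngeal pouch formation, the levels were 2.51%, 1.89% and 1.44% in Conventional and 16.4%, 17.2% and 13.3% in Reset libraries. The difference was 13.7 points (SE 1.25, adjusted p = 1.64e-05), and it was 4.46 points with an adjusted p of 0.0679 when the promoter was drawn from 500 bp upstream. PAX7, which marks muscle satellite cells, moved by only 3.54 points (SE 0.706, adjusted p = 0.0126), from 0%, 0.685% and 1.46% to 3.91%, 3.50% and 5.37%. These groups did not overlap, but with the narrower promoter the adjusted p was 0.0741, and equal weight for each CpG gave 2.23 points, a value with no test.

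The 3 promoters without a call were at most 7.27% methylated in every library. PAX2, an early kidney and optic stalk factor, had 0%, 5.49% and 3.64% in Conventional and 1.79%, 1.75% and 0.472% in Reset libraries (adjusted p = 0.413). Without Conventional replicate 1 the PAX2 promoter was 3.22 points lower in Reset cells with an adjusted p of 0.0404. PAX5, the B cell commitment factor, had 6.87%, 4.82% and 5.92% against 1.27%, 7.27% and 5.57% (adjusted p = 0.555). PAX6, the eye and islet factor, had 0.526%, 0.625% and 0.837% against 0.508%, 2.25% and 0.568% (adjusted p = 0.523). In all 3 genes the groups overlapped.

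PAX4, needed for islet beta cells, was the exception in the other direction. Its promoter held 5 CpGs, against 41 to 119 in the other members. The Conventional levels were 93.3%, 78.6% and 78.6% over 14 or 15 calls, and the Reset levels 16.7%, 6.67% and 15% over 15 to 20 calls. The groups were far apart, with a fall by 70.7 points (SE 5.81, adjusted p = 6.45e-05), and a minimum of 30 calls left the promoter untested.

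**Figure D1:**
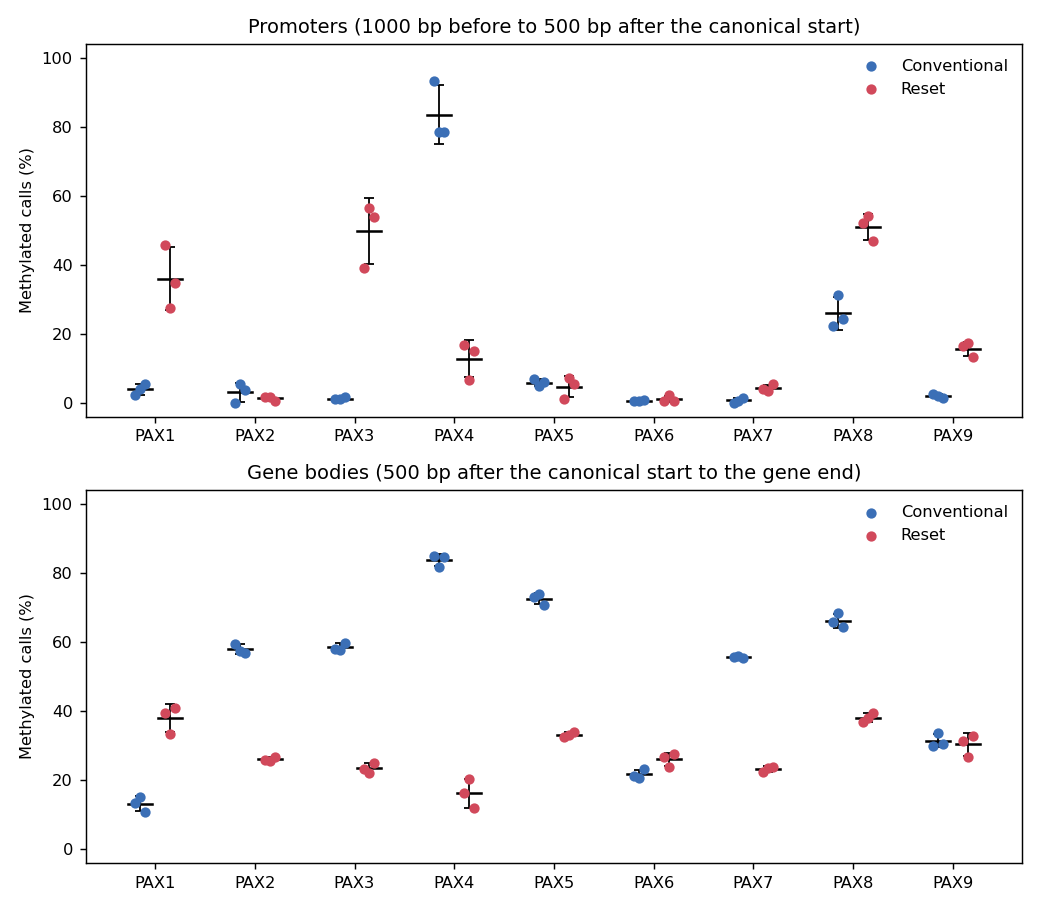
Methylated calls (%) of the promoters (upper panel) and gene bodies (lower panel) of the 9 PAX genes, with a point for each of 3 Conventional and 3 Reset libraries, and bars for the mean and SD. The promoters of PAX1, PAX3, PAX7, PAX8 and PAX9 stood higher in every Reset library, that of PAX7 by only 3.54 points, and that of PAX4 lower. Most bodies fell from 55.8% or more to under 40%.

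To see where within the genes methylation was gained or lost, the regions from 10 kb upstream of the canonical start to the gene end were cut into 1438 tiles of 500 bp, of which 845 could be tested. Of these, 562 were lower and 178 higher in Reset cells. Of 1982370 tiles tested genome-wide, 95.9% were lower and 0.737% higher. A tile was called raised where it was higher by at least 10 points and every Reset library stood above every Conventional library. This held for 140 PAX tiles, against 0.472% of all tiles.

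The PAX tiles are described by their starting level. Of 252 PAX tiles under 20% in Conventional cells, 139 were raised (55.2%) and 2 were lower, whereas 13.2% of all such tiles in the genome were raised and 14.2% were lower. With at least 10 CpGs in the tile the count was 114 of 213, against 12.5% genome-wide. Of 152 tiles between 20% and 80%, 119 were lower and 1 was raised, where 90.3% of such tiles genome-wide were lower. All 441 tiles over 80% were lower, as were 99.9% of such tiles genome-wide. Of 554 tiles at 50% or more in Conventional cells, 4 kept at least 80% of that level (0.722%, against 0.339% of all such tiles), and 3 of these lie in introns of PAX5 and the other in an intron of PAX9.

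**Figure D2:**
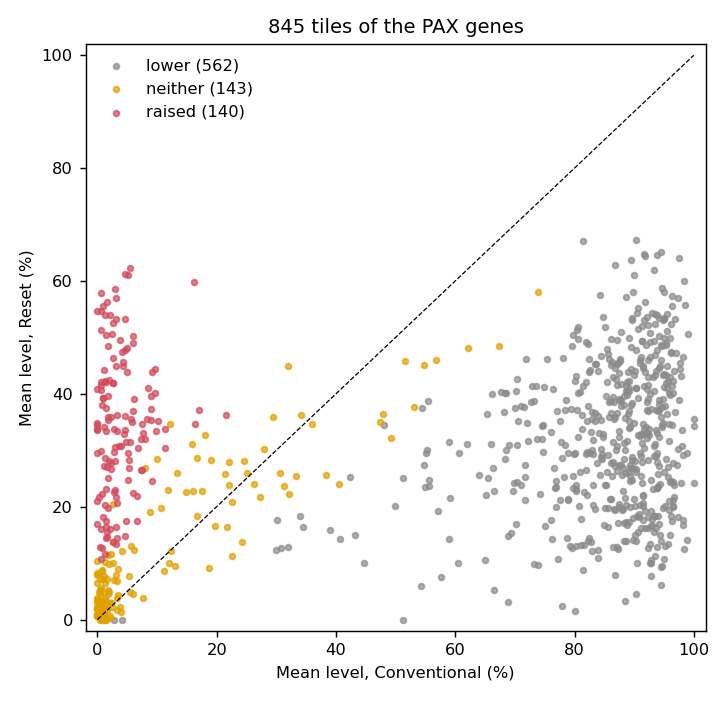
Mean level in Reset (vertical axis, %) against mean level in Conventional cells (horizontal axis, %) for the 845 tested tiles of the PAX genes, each point being a tile, with equality as a dashed line. The 140 raised tiles sit at the left edge and reach about the same Reset levels as many of the 562 lower tiles, which come from the right.

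Averaged over the 252 low tiles, the level was 3.73%, 3.93% and 3.86% in the Conventional and 22.3%, 21.8% and 23.2% in the Reset libraries. The libraries of a group lay close together, and the difference was 18.6 points (SE 0.438). Over all 66065 low tiles of the genome the mean went from 4.78% ± 0.0712 to 7.66% ± 0.0579 (SD, n = 3 each), a difference of 2.88 points. Over the 441 highly methylated PAX tiles the mean was 90.3% ± 0.440 in Conventional and 33.6% ± 0.455 in Reset cells, against 92.3% and 34.1% over all tiles of this class. These low and high classes were set from the Conventional mean of the same libraries, and the levels are given as a description.

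The members differed widely in how many low tiles were raised. All 9 low tiles of PAX8 were raised, as were 24 of 26 in PAX1, 35 of 40 in PAX3 and 16 of 24 in PAX9. In PAX6 it was 25 of 48 and in PAX2 16 of 38. The share was smaller in PAX7, with 10 of 38, and in PAX5, with 3 of 26 (11.5%), which is close to the 13.2% of low tiles genome-wide. PAX4 had 3 low tiles, of which 1 was raised.

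**Figure D3:**
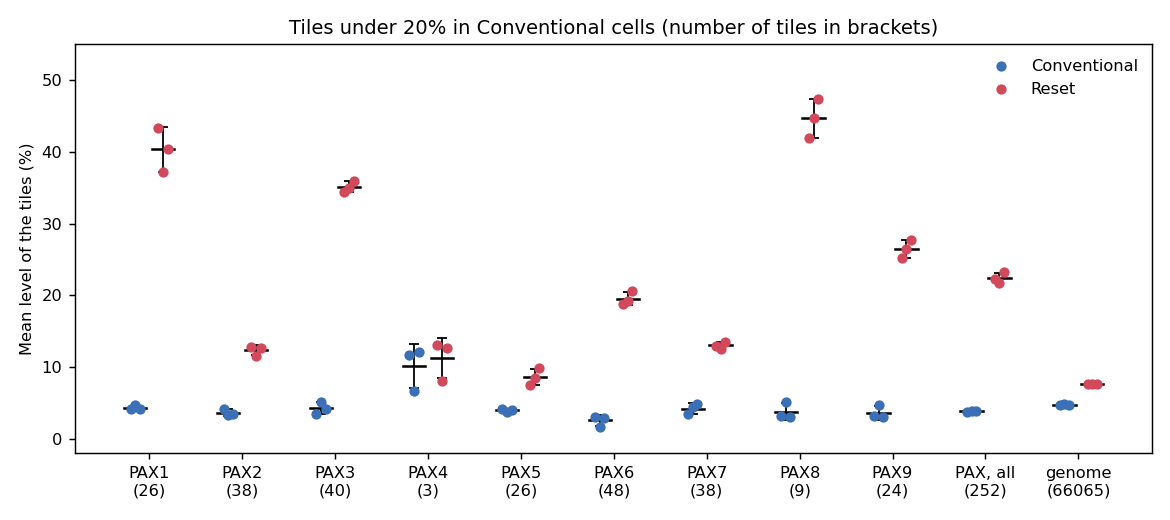
Mean level (%) of the tiles that were under 20% in Conventional cells, by gene, for all PAX tiles and for the genome, with the number of tiles in brackets, a point for each library and bars for the mean and SD of 3 libraries. The Reset means run from 8.65% in PAX5 to 44.6% in PAX8, against 7.66% for the genome.

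In order, the Reset mean over low tiles was 44.6% ± 2.69 in PAX8, 40.3% ± 3.07 in PAX1, 35.1% ± 0.765 in PAX3, 26.5% ± 1.26 in PAX9, 19.5% ± 0.910 in PAX6, 13% ± 0.515 in PAX7, 12.4% ± 0.739 in PAX2, 11.3% ± 2.78 in PAX4 and 8.65% ± 1.14 in PAX5 (SD, n = 3 libraries). The Conventional means lay between 2.58% and 4.37% in all but PAX4, where the 3 tiles gave 10.2% ± 3.02. In this order PAX8 and PAX1, PAX7 and PAX2, PAX2 and PAX4, and PAX4 and PAX5 differed by less than the sum of their SDs. Members of a subfamily differed: the rise over low tiles was 40.8 points in PAX8, 8.69 in PAX2 and 4.63 in PAX5, and 35 low tiles were raised in PAX3 against 10 in PAX7. The raised tiles held fewer CpGs (median 19) than the low tiles that were not raised (median 28), as did low tiles over the whole genome (20 against 30).

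By distance from the canonical start, 12 of 29 low tiles within 1 kb were raised. From 1 to 5 kb downstream it was 33 of 48, from 5 to 10 kb downstream 28 of 48, from 1 to 5 kb upstream 26 of 48, from 5 to 10 kb upstream 19 of 33, and beyond 10 kb downstream 21 of 46. The differences between these counts were not tested. Of the 140 raised tiles, 27 touched an exon of the canonical transcript (of 115 tested and 49 low tiles there), 64 lay in introns (of 598 tested and 111 low) and 49 upstream (of 128 tested and 92 low). In these tiles the Reset libraries had means of 34.4%, 33.8% and 35.4%. A raised tile needed every Reset library above every Conventional library, so these means cannot show whether the libraries gained alike.

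**Figure D4:**
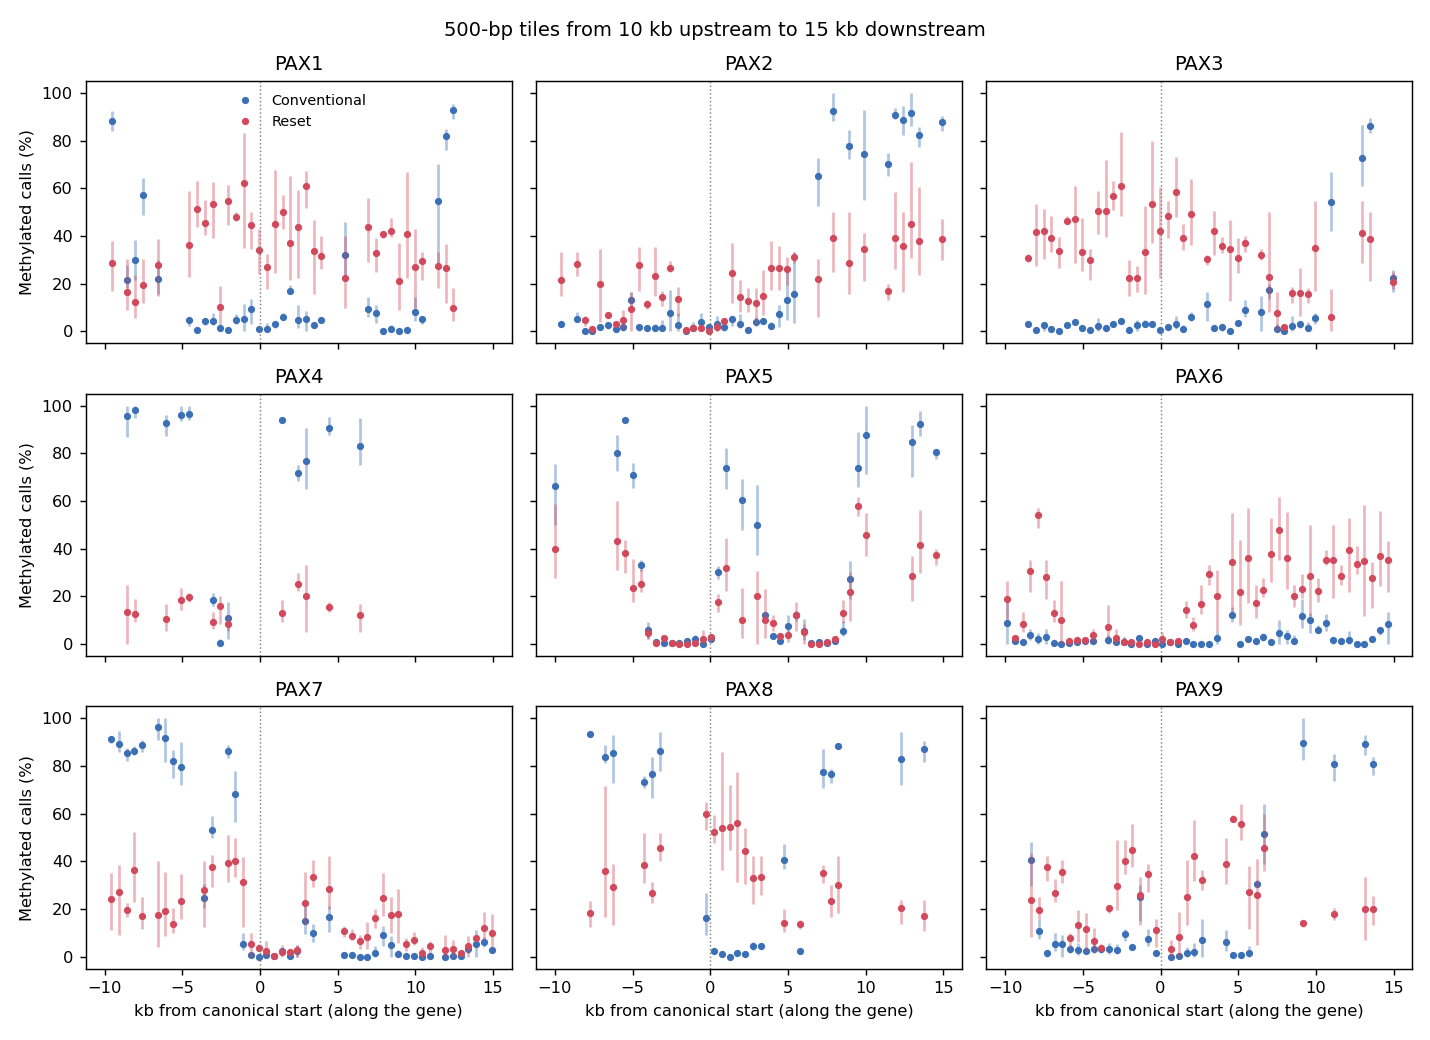
Level (%) of each tested 500-bp tile against distance from the canonical start (kb, along the gene) from 10 kb upstream to 15 kb downstream, with points for the group mean and lines for the lowest to highest of 3 libraries. PAX1, PAX3 and PAX8 gained across the start, PAX2, PAX5, PAX6 and PAX7 stayed near 0% at the start, and PAX4 lost from high levels on both sides.

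The length of the unmethylated stretch around each start, counted over neighbouring tested tiles under 20%, changed accordingly. In Conventional cells it was 25 kb for PAX6, 19 kb for PAX3, 18.5 kb for PAX7, 15.5 kb for PAX2, 9 kb for PAX1, 4.5 kb for PAX5 and 4 kb for PAX8. The stretches of PAX2, PAX3 and PAX6 ran to the upstream edge of the region or close to it, so they may be longer. In Reset cells 10 kb remained for PAX6 and 3.5 kb each for PAX2 and PAX7, while PAX5 stood at 5 kb. For PAX1, PAX3 and PAX8 the start tile itself was over 20% in Reset cells, and no such stretch was left.

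Of the 4 tiles that kept their methylation, 3 were between 51.6% and 56.8% in Conventional cells. The highest of them, in a PAX5 intron 84.5 kb from the start, had 88.7%, 79.2% and 76.2% in Conventional and 64.7%, 60.5% and 76.0% in Reset libraries, over 21 to 62 calls. These levels came close together without overlapping, 14.3 points apart at the group means (SE 5.98, adjusted p = 0.00965). The tile in PAX9, 6.69 kb from the start, had a Conventional mean of 51.6% ± 12.6 and a Reset mean of 45.8% ± 12.6 (adjusted p = 0.386), so the groups could not be separated.

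Raised tiles lay next to each other. With at most 1 tile between neighbours, 129 of the 140 fell into 20 runs that cover 69 kb. The longest run belongs to PAX3 (chr2:223157001-223172500, 15.5 kb, 29 raised tiles), from 8.53 kb upstream to 6.47 kb downstream of its start, and overlaps the lncRNA gene CCDC140. Over this run the level was 2.43%, 2.49% and 2.89% in Conventional and 41.0%, 41.5% and 42.1% in Reset libraries. The groups were 38.9 points apart (SE 0.362). Runs were built from tiles that had to be higher in every Reset library, so levels over runs are given as a description. They cannot show whether the libraries gained alike. Further runs in PAX3 introns, 8.47 to 9.97 kb and 58.5 to 59.0 kb downstream, reached 18.4% ± 3.47 and 37.5% ± 2.77. The tile with the largest rise in PAX3 lies 2.53 kb upstream of the start (chr2:223166001-223166500) and went from 4.56% ± 0.923 to 61.2% ± 19.5, with Reset libraries at 83.7%, 51.5% and 48.4%. The start tile of PAX3 went from 0.546% ± 0.946 to 42.1% ± 19.1 (adjusted p = 5.82e-08).

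PAX1 had a 9 kb run over its start (chr20:21681501-21690500, 17 raised tiles), in which the level went from 3.98% ± 0.421 to 40.6% ± 5.33, and a 4 kb run from 6.95 kb downstream, from 3.25% ± 1.25 to 35.4% ± 3.55. These 2 runs hold all 24 raised tiles of the gene. In the tile at the canonical start the Conventional levels were 1.39%, 0% and 2.04% and the Reset levels 35.7%, 24.0% and 42.9%. The groups were well apart (adjusted p = 4.39e-07). The largest rise, 1.05 kb upstream, was from 5.43% ± 5.80 to 62.3% ± 24.8, and there the Reset libraries varied from 35.0% to 83.3%.

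In PAX8 the run covered the start and the first introns (chr2:114033001-114037000, 4 kb, 8 raised tiles) and reached into the antisense lncRNA gene PAX8-AS1. The level was 2.84%, 3.91% and 2.25% in Conventional and 44%, 47.8% and 52.9% in Reset libraries, which is the second highest Reset level of any run. Its Reset mean of 48.2% ± 4.45 and that of the next, a PAX7 run at 42.1% ± 2.24, differed by less than the sum of their SDs. The start tile of PAX8 went from 2.56% ± 1.03 to 52.5% ± 6.22 (adjusted p = 1.90e-08). The largest rise in PAX8, 1.75 kb downstream, was from 1.58% ± 0.660 to 56.3% ± 23.2 (adjusted p = 5.80e-09), with Reset libraries at 31.6%, 59.7% and 77.6%. Both other annotated coding starts of PAX8 lie far downstream in highly methylated tiles and moved the opposite way, from 97.4% ± 3.24 to 57.0% ± 6.27 at 43.5 kb and from 87.5% ± 9.53 to 32.4% ± 16.5 at 37.1 kb.

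PAX9 carried 4 runs with tiles between them that stayed low. The strongest lies 4.19 to 5.69 kb downstream of the canonical start (chr14:37135001-37137000, 4 raised tiles) and went from 0.341%, 2.63% and 2.00% to 52.0%, 48.6% and 56.7%, the highest Reset level of the 20 runs. Its Reset mean of 52.4% ± 4.07 differed from that of the PAX8 run by less than the sum of their SDs. The PAX9 tile at 4.69 kb, which holds the PAX9 sequence printed above and touches an exon, went from 0.647% ± 1.12 to 57.8% ± 1.45 (adjusted p = 1.03e-10). This rise of 57.2 points was the largest in the family by value. Those of PAX1 (56.9 points, SE 14.7) and PAX3 (56.6 points, SE 11.3) were too close to rank. The other runs reached 22.8% ± 2.33, 32.3% ± 2.83 and 32.2% ± 10.2. At the upstream coding starts of PAX9, 4.19 and 4.29 kb before the canonical start, the shared tile was 3.27% ± 2.11 and 6.84% ± 5.00 and did not pass (adjusted p = 0.340). The tile that holds the canonical PAX9 start had too few calls to test.

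PAX6 was the clearest case of a start that stayed low between gains on both sides. Downstream of its canonical start, runs of 2, 4 and 5 kb (chr11:31829501-31831500, chr11:31824001-31828000 and chr11:31818001-31823000) went from 0.437% to 14.6%, from 1.66% to 26.9% and from 3.38% to 33.6%. Upstream, a 2 kb run 6.88 to 8.38 kb away (chr11:31839501-31841500), which overlaps the lncRNA gene PAUPAR and the coding gene ENSG00000285283, went from 2.08% ± 0.132 to 28.0% ± 5.86. A stretch of 10 kb around the start, which takes in the inner ends of these runs, stayed under 20% in all its tested tiles in Reset cells. The start tile held no methylated call in Conventional libraries and had 1.37%, 5.21% and 0% in Reset libraries, a difference that passed (adjusted p = 0.0125) although the groups overlapped.

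PAX6 has 32 further annotated coding starts at least 1 kb from the canonical start, 31 of them in 14 tested tiles. Of these tiles, 7 were raised and 1 was lower. A further 3 passed the test as higher but overlapped between the groups, from 12.2% ± 3.37 to 34.6% ± 20.7 in the tile at 4.41 to 4.87 kb downstream (adjusted p = 0.0162), from 2.63% ± 2.79 to 20.4% ± 13.3 at 3.67 to 3.70 kb downstream (adjusted p = 0.000349) and from 0% to 10.3% ± 14.1 at 6.59 to 6.62 kb upstream (adjusted p = 0.00206). The other 3 did not pass. Of the raised tiles, 5 lie 4.91 to 8.08 kb downstream, with Reset means from 21.8% to 47.7%. At 7.06 to 7.36 kb, where many starts share a tile, the level went from 0.790% ± 0.714 to 37.9% ± 13.7 (adjusted p = 3.10e-08). Starts from 1.20 kb downstream to 1.81 kb upstream of the canonical start lay in tiles with means under 3% in both groups. The highest rise in PAX6 was 7.88 kb upstream, in the tile with the printed sequence, from 0%, 4.65% and 1.54% to 56.5%, 57.0% and 48.6% (adjusted p = 7.68e-09).

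PAX2 gained less, in 4 runs that spared its start. Their Reset means were 26.2% ± 6.18 and 20.2% ± 2.60 upstream, 18.5% ± 4.09 from 1.41 kb downstream and 18.6% ± 4.07 at about 80.4 kb, each from under 7% in Conventional cells. The tile at the canonical PAX2 start had 0%, 3.17% and 2.94% in Conventional and 1.04%, 0% and 0% in Reset libraries (adjusted p = 0.231), so these levels overlapped near 0. A coding start 3.27 kb downstream lay in a raised tile, from 4.59% ± 0.850 to 14.8% ± 9.76 (adjusted p = 0.00195). The largest rise in PAX2 lies 4.59 kb upstream, from 1.86% ± 1.63 to 28.0% ± 9.65 (adjusted p = 4.76e-05).

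In PAX7, 10 of the 38 low tiles were raised, 6 of them in 2 runs. The 1 kb run inside a PAX7 intron 85.9 kb from the start (chr1:19043001-19044000, 77 CpGs) went from 5.15%, 7.29% and 6.17% to 43.4%, 39.6% and 43.5%, and a 2 kb run 7.41 kb downstream from 4.54% ± 2.26 to 19.1% ± 1.74. The largest rise in PAX7 lies in the 1 kb run, from 3.80% ± 2.29 to 49.6% ± 9.87 (adjusted p = 1.44e-08). The PAX7 start tile had no methylated call in Conventional libraries and 3.08%, 3.33% and 5.26% in Reset libraries (adjusted p = 0.00780). PAX5 had 3 raised tiles and no run. The tile at the coding starts 31.5 and 31.6 kb downstream (chr9:37002501-37003000, 54 CpGs), which also holds the start of the lncRNA gene ENSG00000250850, went from 2.40%, 4% and 1.53% to 49.4%, 31.7% and 44.6%. The groups were 39.2 points apart (SE 5.33, adjusted p = 1.87e-09). The tile of a further PAX5 start, 8.52 kb downstream, was 5.63% ± 3.47 and 13% ± 4.99 (adjusted p = 0.0332), with overlapping libraries. At the canonical start of PAX5 the tile stayed at 2.28% ± 0.651 and 2.92% ± 1.85 (adjusted p = 0.652), so starts of the same gene, both dense in CpGs, parted in Reset cells.

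In PAX4, 10 of the 13 tested tiles were lower, where 95.9% of all tiles genome-wide were lower. The 8 PAX4 tiles over 80% in Conventional cells ended between 10.5% and 20.0% in Reset cells. The 1 raised tile lies 2.55 kb upstream and went from 0%, 2.04% and 0% to 20.0%, 8.57% and 19.4% (adjusted p = 0.000203). The tile at its start had too few calls to test, and the tile of 2 other coding starts went from 71.7% ± 3.29 to 25.2% ± 4.21.

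The tiles with the largest falls lay outside these stretches, mostly in introns or far upstream. In PAX5 it was 93.0 kb into the gene (chr9:36941001-36941500), where Conventional levels of 87.9%, 95.6% and 100% compare with 3.13%, 9.68% and 5.56% in Reset libraries, a fall by 88.4 points (SE 4.01, adjusted p = 1.27e-09). In the other 8 genes the largest fall was between 75.0 and 85.9 points. The Reset mean over highly methylated tiles ranged from 14.4% ± 2.48 in PAX4 to 40.0% ± 1.14 in PAX5, and PAX8, at 38.1% ± 1.29, differed from PAX5 by less than the sum of their SDs.

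Gene bodies, from 500 bp downstream of the canonical start to the gene end, summed both kinds of change. Of all 19182 bodies tested, 97.8% were lower in Reset cells and 1.11% higher. Among the PAX genes 6 of 9 were lower (PAX2, PAX3, PAX4, PAX5, PAX7 and PAX8), 2 were higher (PAX1 and PAX6) and PAX9 was not called. The body of PAX1 went from 13.3%, 15.2% and 10.9% to 39.5%, 33.3% and 41.0%, with no overlap and a difference of 24.8 points (SE 2.65, adjusted p = 3.82e-12), which was 13.8 points when the body began 5000 bp after the start. The body of PAX6 had 21.1%, 20.7% and 23.1% in Conventional and 26.6%, 23.8% and 27.6% in Reset libraries. These groups also did not overlap, but they were only 4.34 points apart (SE 1.36, adjusted p = 0.00149), or 9.45 points when each CpG was given equal weight.

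The body of PAX9 had 30.01%, 33.6% and 30.5% in Conventional and 31.4%, 26.7% and 32.9% in Reset libraries (adjusted p = 0.60). The groups overlapped. Taken from 5000 bp downstream of the start, the PAX9 body was lower by 22.5 points (adjusted p = 6.30e-10), whereas equal weight for each CpG of the whole body gave 9.99 points higher, a value with no test. Among the bodies that fell, PAX4 went from 83.8% ± 1.78 to 16.1% ± 4.16 and PAX5 from 72.6% ± 1.63 to 33.2% ± 0.749. PAX2, PAX3, PAX7 and PAX8 fell by 28.0 to 35.1 points, against a median fall by 51.2 points over all bodies. These 4 bodies started at 55.8% to 66.1% in Conventional cells, against a median of 87.5% over all bodies, so falls in points are not directly comparable. As a share of their Conventional level, they lost 55.1%, 59.9%, 58.4% and 42.4%. When the body began 5000 bp after the start, they fell by 40.0, 48.1, 35.7 and 47.6 points.

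The promoters of 45 genes that work with PAX proteins or are known targets of them were compared in the same fit. Of these, 19 were lower, 14 higher and 12 not called, where 67.4% of all promoters were lower and 3.98% higher. Of the 45, 31 were under 20% in Conventional cells, and all 14 higher ones were among them, against 6.55% of all promoters under 20%. The median difference over the list was a fall by 0.931 points, against a fall by 9.59 points over all promoters.

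The EYA cofactors and homeobox factors such as SIX3 form a regulatory network with PAX proteins in eye, ear and kidney. Of 4 EYA promoters, 3 were lower and none was higher, a share lower that is near that of all promoters. The promoters of SIX2, SIX3 and SIX6 were higher and that of SIX4 was lower. SIX3, an eye and forebrain factor, had the largest rise on the list, from 1.36%, 0% and 3.41% to 32.7%, 33.6% and 42.2%, 34.6 points with no overlap (SE 3.19, adjusted p = 8.26e-07). SIX6, its close relative, went from 0.716% ± 0.192 to 14.5% ± 3.34 (adjusted p = 3.01e-06), and MEOX2, a somite factor, from 2.51% ± 1.55 to 17.3% ± 3.32 (adjusted p = 5.31e-05).

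Of 5 kidney genes, GDNF, WT1 and LHX1 were higher, by only 4.72, 7.63 and 0.970 points, and RET was lower by 5.83 points. All 3 higher genes among the 4 of sclerotome and tooth (NKX3-2, MSX1 and UNCX) gained under 10 points. Several differentiation genes of the mature tissues started high and fell, as promoters with a high start did at the median. Over all 3821 promoters at 80% or more in Conventional cells the median difference was -55.01 points. A fall by itself therefore does not set these genes apart. GCG, which encodes glucagon, went from 93.7%, 89.2% and 95.2% to 8.70%, 7.94% and 3.64%, a fall by 85.9 points (SE 2.39, adjusted p = 3.35e-08). TG, which encodes thyroglobulin, fell by 76.7 points (SE 2.66, adjusted p = 5.42e-07) and CD79A, a subunit of the B cell receptor, by 59.7 points (SE 5.99, adjusted p = 5.48e-06). The lens crystallin genes CRYAA and CRYAB fell to 60.1% ± 4.52 and 37.2% ± 5.18, both by less than the median of promoters at 80% or more.

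**Figure D5:**
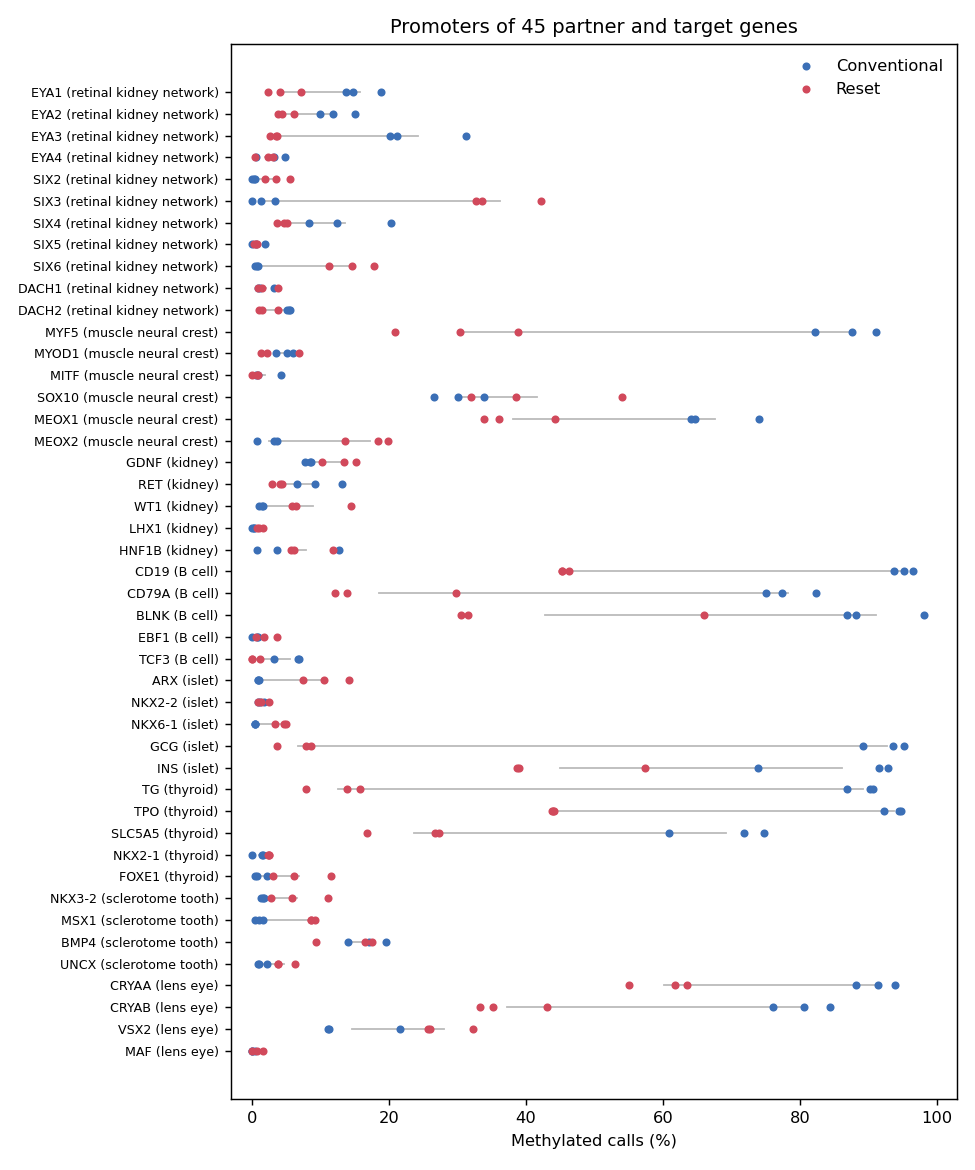
Methylated calls (%) of the promoters of 45 partner and target genes, with a point for each library and a grey line between the group means, grouped by list (named in brackets). The largest rise among genes near 0% in Conventional cells was that of SIX3, to 36.2% on average. The tissue genes over 60% all fell, and the median change over all promoters at 80% or more was also a fall.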

How the data were processed

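The authors trimmed bisulfite reads with Trim Galore, aligned them to GRCh37 with Bismark (version 0.9.0 per the labels, whereas the study's methods name an earlier version) and Bowtie2, and deposited counts of methylated and of unmethylated calls at each cytosine, with the percent methylated. Removal of duplicate reads is not given in the sources used here, so calls may include copied molecules from the 11 amplification cycles. No expression data were used.

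The deposited counts were used. Positions were read as counted from 0 (99.8% then fell on a CpG), printed from 1, and the strands of a CpG were summed. Starts came from the GENCODE 44 canonical transcripts on GRCh37. For promoters, bodies and 500-bp tiles with at least 10 calls in every library, the groups were compared with a quasi-binomial logistic model, a likelihood-ratio F test and a dispersion moderated over all features (limma 3.58.1, R 4.3.3) and kept at 1 or more, with Benjamini-Hochberg adjustment over all features tested. Values are mean ± SD of library levels, and the SE of a difference comes from the 2 SDs. An exact permutation test of 3 against 3 libraries cannot go below 0.1 and was not used. The scripts were tested on simulated data.

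All 9 genes are named. Their promoters, bodies, start tiles, other coding starts at least 1000 bp away, runs of raised tiles and largest rises and falls among called tiles without overlap were computed, and largest falls are given as a range except in PAX5. Partner genes named are those with the largest changes and the families of their lists. The other partner genes enter only the counts, and a further gene of that list was left out of these too and is not reported here. The members and lists were chosen with earlier results of these data known. PAX tiles had 10 to 232 calls. Alternatives tried were other bounds, minimum calls, a shifted grid, pooled Fisher tests, a replicate block, means over CpGs and leaving out each library.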

Additional observations from a re-analysis of the deposited data

How the results depend on the processing

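Of 100 recomputed counts, 93 stayed within 1.5 times the value given above, and no called difference of a single gene reversed. Giving each CpG equal weight moved 8 of the 18 promoter and body differences by more than the SD between Reset libraries. With promoters cut to 500 bp on each side of the start, 3 PAX promoters were higher and 0 lower, since PAX7 and PAX9 missed the threshold and PAX4 had too few calls, and 12 partner promoters were lower. With at least 30 calls in every library 0 PAX promoters were lower, because PAX4 was not tested. With at least 20 calls in every library 129 PAX tiles were lower and with at least 5 calls 852, as fewer or more tiles were tested. Leaving out 1 library at a time gave 1 to 2 PAX promoters lower (2 without Conventional replicate 1, when PAX2 passed) and 5 higher each time, 564 to 621 PAX tiles lower, 164 to 169 higher and 137 to 144 raised, 17 to 19 partner promoters lower and 12 to 14 higher, and 6 PAX bodies lower and 2 higher. The share of low PAX tiles that were raised ran from 51.3% to 58.3% over all alternatives, including limits of 10% and 30% for a low tile that were chosen after seeing the data, against 11.9% to 13.7% of low tiles genome-wide. Same-numbered libraries did not deviate together over promoters (correlations 0.00145 to 0.00950, and no Conventional library except replicate 2 correlated best with its own number). A fit with the replicate block gave 538 PAX tiles lower, 154 higher and 134 raised, and changed no promoter or body call of the 9 genes. Depth limits the tiles: 845 of 1416 PAX tiles with a CpG could be tested, and the start tiles of PAX4 and PAX9 could not.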
